A study of Mus musculus with 45 samples.

Results

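The effect of blocking glutamate uptake during action potential (AP) firing was measured in mouse hippocampal primary neurons by comparing 5 libraries labelled 1 h bicuculline plus 1 h TBOA with 5 libraries labelled 2 h bicuculline. These 10 libraries were all those of the 2 conditions among the 45 libraries of the series (9 conditions with 5 libraries each), and they were chosen by their treatment labels and paired by the number of the culture preparation, which was 1, 3, 6, 7 or 8. The neurons came from newborn C57BL/6N mice, were grown in the supplement B27 with rat serum and received the antimitotic AraC, which limits dividing glia. Both groups received bicuculline (Bic, 50 µM), an antagonist of GABA type A receptors that sets off synchronous AP firing. In the TBOA group, TBOA (DL-threo-β-benzyloxyaspartic acid, 50 µM) was added after 1 h of Bic for a further 1 h, and the 2 h Bic group had Bic alone for the same total time. Other conditions of the same preparations serve for reference. Untreated controls and 1 h Bic give the level at which TBOA was added. Bic for 1 h followed by 1 h with tetrodotoxin (TTX, 1 µM), which stops APs, or with TTX and NMDA (30 µM), gives the response to bath-applied NMDA.

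Glutamate released at synapses is cleared by excitatory amino acid transporters, of which GLT-1 (Slc1a2) and GLAST (Slc1a3) sit mainly on astrocytes and EAAC1 (Slc1a1) and EAAT4 (Slc1a6) on neurons. TBOA occupies these transporters without being carried, so that glutamate lingers and can reach receptors outside the synapse. Firing neurons respond to synaptic calcium entry by switching on transcription factors such as Npas4 and Fos within minutes and secreted and synaptic proteins such as Bdnf, Inhba and Homer1 later, in large part through the transcription factor CREB. NMDA receptors outside the synapse are known for opposing CREB.

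Counts on genes ranged from 11455443 (preparation 6) to 81129276 (preparation 1) per library with TBOA, with a median of 33725693, and from 18846520 to 42692080 with 2 h Bic, with a median of 26239614. One library stood apart. Libraries of 1 preparation tended to deviate together from the means of their conditions, and across 13592 genes the deviations of a TBOA library correlated with those of its own preparation in the other 7 conditions with a mean r of 0.34, 0.40, 0.51 and 0.66 for preparations 1, 3, 7 and 8. For the TBOA library of preparation 6 this mean was −0.16, and its highest mean with another number was 0.15, with preparation 3, whereas the 2 h Bic library of preparation 6 gave 0.42 with its own number. Results are therefore given with and without preparation 6. The labelled cell type was borne out by its markers, since the summed level of 14 neuronal markers was 9279 to 10590 CPM (counts scaled to a common library size) with 2 h Bic and 8943 to 10350 CPM with TBOA, and none of the markers was at 0. Astrocyte markers (12 genes) summed to 1187 to 1715 CPM with 2 h Bic and 1383 to 1789 CPM with TBOA, and the rise was largest in preparation 6, from 1187 to 1789 CPM. The astrocyte sum was higher with TBOA in 4 of 5 preparations (two-sided exact sign-flip permutation test over preparations, p = 0.1875, where 5 pairs cannot give less than 0.0625). The sums of 11 markers each with 2 h Bic and TBOA were 147 to 209 and 151 to 225 CPM for the oligodendrocyte lineage (exact sign-flip permutation p = 0.125), 29.5 to 36.8 and 29.1 to 32.9 CPM for microglia (exact p = 0.9375) and 123 to 342 and 127 to 347 CPM for endothelial cells and fibroblasts (exact p = 0.0625), and neuronal markers gave p = 0.25 in this exact test. Of the neuronal markers, the neurofilaments Nefl and Nefm were lowered (−0.20 and −0.21). In these bulk samples a change in the number of cells of a type and a change in RNA per cell cannot be told apart.

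TBOA lowered 348 of the 15628 genes tested (2.23%) and raised 69 (0.442%) at a Benjamini-Hochberg adjusted p under 0.05 in edgeR's paired quasi-likelihood test. Differences are log2 fold changes of TBOA against 2 h Bic throughout, and levels are CPM. The falls were moderate, with a median of −0.32 over the lowered genes, and 64 of the 348 fell by more than 0.5 on the log2 scale. For 343 of the 348 lowered genes the TBOA library had the lower level in all 5 preparations, and for 63 of the 69 raised genes it had the higher level in all 5. The lowest 2 h Bic library was above the highest TBOA library, or the reverse for raised genes, for 186 of the lowered and 21 of the raised genes. Over all 15628 genes tested, 2657 had the same direction in all 5 preparations, 399 had groups that did not overlap, 1572 were lower and 1337 higher at an unadjusted p under 0.05, and the median difference was 0.0055.

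The numbers depended on the preparations and on the pairing. Without preparation 6, whose TBOA library stood apart, 619 of 15656 genes (3.95%) were lowered and 305 (1.95%) raised, and these included all 348 and all 69 genes called with it. The counts without preparation 1 were 112 lowered and 8 raised. They were 221 and 15 without preparation 3, 249 and 44 without preparation 7, and 219 and 17 without preparation 8. A fit without the replicate block, which leaves the differences between preparations in the error, called 97 lowered and 7 raised genes, each of which was also called in the paired fit.

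**Figure D1:**
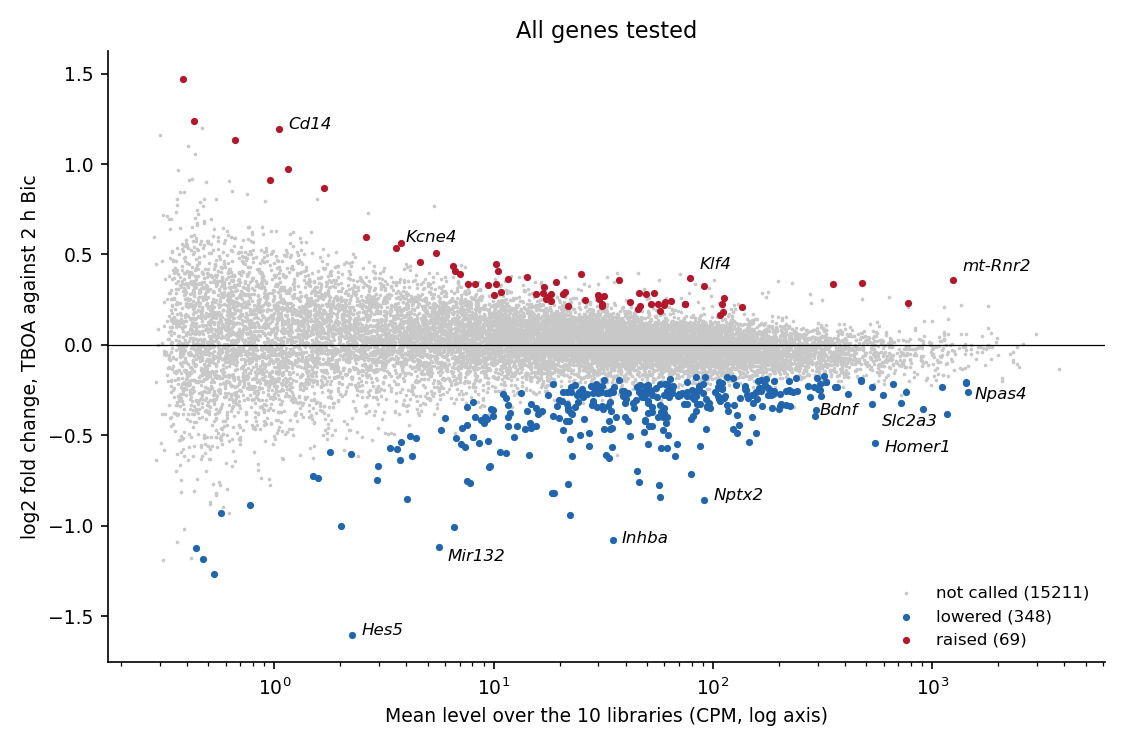
Log2 fold change of TBOA against 2 h Bic (vertical axis) for each of the 15628 genes tested against its mean level over the 10 libraries in CPM (horizontal log axis), with 348 lowered genes in blue, 69 raised genes in red and the others in grey. The lowered genes reach from Hes5 (−1.60) over Inhba (−1.08) to highly expressed genes such as Homer1 (−0.54), while the raised genes are fewer and lie mostly under 0.6.

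Of 41 tested secreted signals and neuropeptides 14 were lowered (34.15%, against 2.23% of all genes), 0 raised (0 also by DESeq2, 3 at an unadjusted p under 0.05) and 27 were not called, with 9 genes above 0 and a median of −0.14. Without preparation 6 there were 15 lowered, and in the unpaired fit 3. This list and those below were drawn up with earlier results of these data known, so their shares are no test of a pathway. The level of Inhba, which encodes the β-A subunit of activin A, was 48.0, 38.98, 50.7, 50.7 and 48.9 CPM with 2 h Bic and 23.5, 20.1, 26.5, 24.1 and 18.2 CPM with TBOA in preparations 1, 3, 6, 7 and 8. The groups did not overlap, and the difference was −1.08 (SE 0.07, adjusted p = 1.7e-05), a fall in all 5 preparations. Inhba lies on chromosome 13 from 16011851 to 16031621 (GRCm38, plus strand).

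Nptx2 encodes a pentraxin that gathers AMPA receptors at synapses. It had 109, 87.4, 142, 85.6 and 164 CPM with 2 h Bic and 47.5, 44.3, 75.9, 61.5 and 95.1 CPM with TBOA. Every preparation fell, although the groups overlapped because the preparations differed in level, and the difference was −0.86 (SE 0.08, adjusted p = 0.00017). The call was lost in the unpaired edgeR fit (−0.85). Penk, the precursor of the enkephalins, went from 21.8, 23.6, 25.5, 29.7 and 20.1 CPM to 11.1, 14.2, 14.9, 16.99 and 11.1 CPM without overlap, a difference of −0.82 (SE 0.06, adjusted p = 2.3e-05). Pdgfb, a platelet-derived growth factor chain, fell by 0.41 on the log2 scale (SE 0.05, adjusted p = 0.0012). Bdnf, the neurotrophin, went from a mean of 306 ± 27.3 to 249 ± 18.5 CPM (SD, n = 5), a difference of −0.29 (SE 0.05, adjusted p = 0.0050) with overlapping groups. The Bdnf call was lost without preparation 1 (−0.25), in the unpaired fit (−0.29) and with all 45 libraries in 1 fit (−0.29). The other lowered genes of the list were Plat, Pcsk1, Tgfb2, Vgf, Scg2, Adcyap1, Vegfa, Serpinb2 and Nptx1, by 0.21 to 0.67 on the log2 scale. They include secretory granule proteins (Vgf, Scg2), a protease that matures prohormones (Pcsk1), the neuropeptide PACAP (Adcyap1) and tissue plasminogen activator (Plat). None of these other lowered genes kept its call in the unpaired fit.

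**Figure D2:**
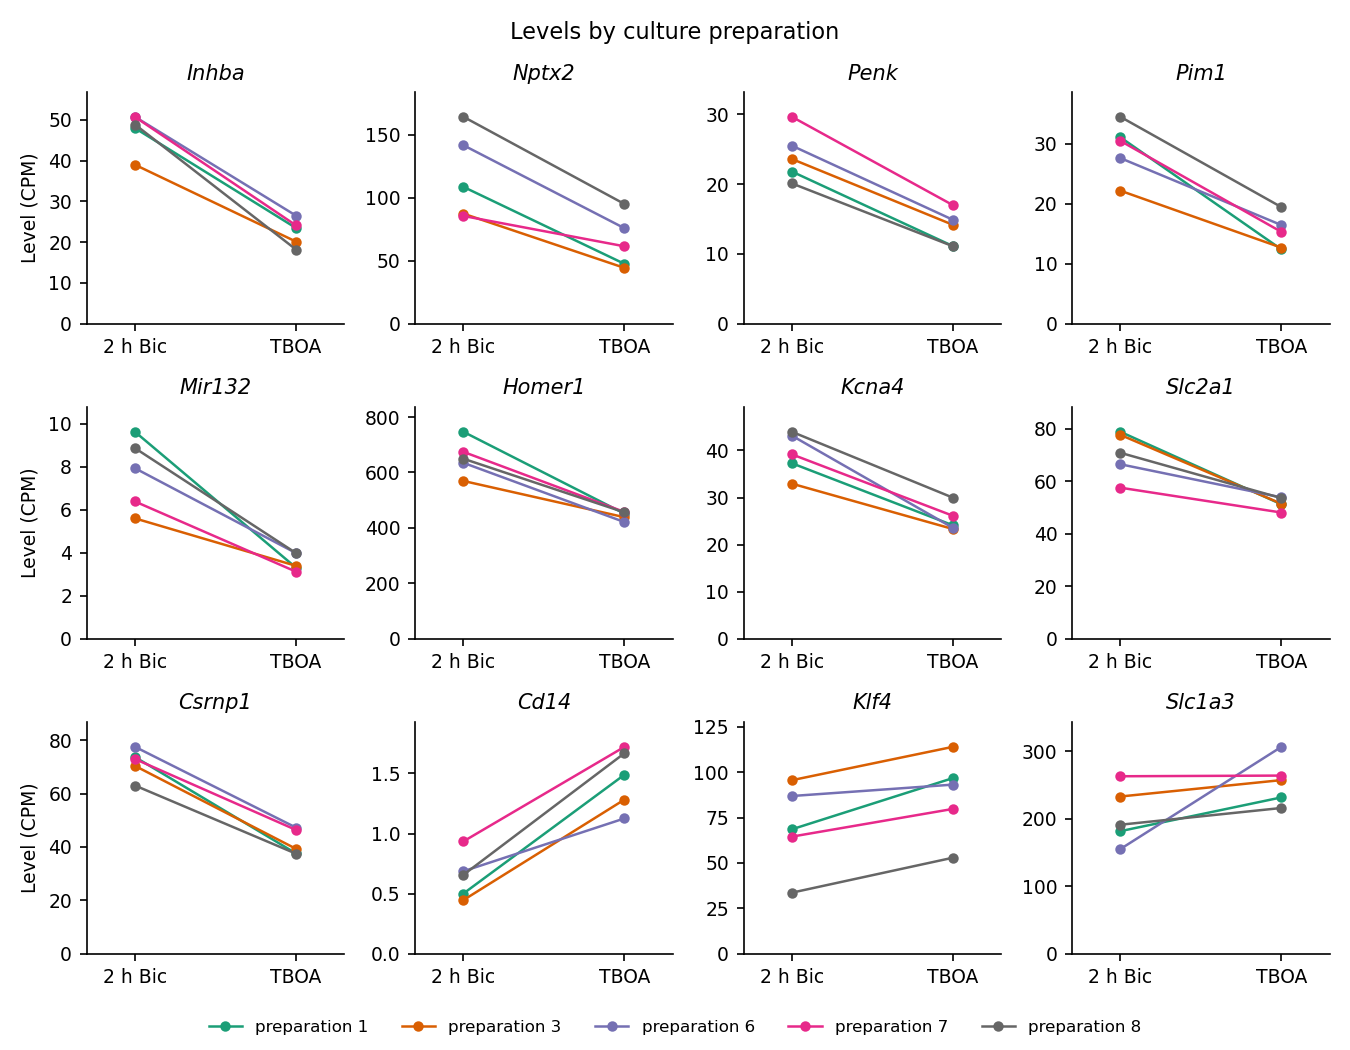
Levels in CPM (vertical axes, from 0) of 12 genes with 2 h Bic and with TBOA, with 1 line and 2 points for each culture preparation. All 5 lines fall for Inhba, Nptx2, Penk, Pim1, Mir132, Homer1, Kcna4, Slc2a1 and Csrnp1 and rise for Cd14 and Klf4, and Slc1a3 rises most in preparation 6, from 155 to 306 CPM.

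Among 37 activity-induced transcription factors 13 were lowered (35.1%, against 2.23% of all genes), 1 was raised and 23 were not called, with a median of −0.19. Without preparation 6 there were 16 lowered and 1 raised, and in the unpaired fit 4 lowered and 0 raised. Csrnp1, a nuclear protein induced by growth signals, had 73.7, 70.4, 77.6, 73.0 and 63.1 CPM with 2 h Bic against 37.6, 39.3, 47.3, 46.4 and 37.5 CPM with TBOA. These groups were far from overlapping, and the difference was −0.78 (SE 0.06, adjusted p = 2.3e-05). The circadian repressors Per2 (−0.63, SE 0.07, adjusted p = 0.00043) and Per1 (−0.36, SE 0.06, adjusted p = 0.0043) and the growth regulator Myc (−0.35, SE 0.05, adjusted p = 0.0031) also fell. Calls for Per2 (−0.62) and Myc (−0.36) were lost in the unpaired fit. The remaining lowered factors were Klf9, Klf10, Nr4a2, Atf3, Fosl2, Rel, Nfil3, Ier5 and Egr3, by 0.23 to 0.41 on the log2 scale. Most of these lost their call in the unpaired fit.

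Npas4, Fos, Egr1, Jun and Nr4a1, immediate early genes of that list, were not called. Npas4, which is specific to calcium entry in neurons, had 2473, 2290, 2396, 2258 and 1702 CPM with 2 h Bic and 1974, 1887, 1801, 2127 and 1872 CPM with TBOA. It was lower with TBOA in 4 of 5 preparations and higher in preparation 8, whose 2 h Bic library was the lowest, and its difference was −0.18 (SE 0.07, adjusted p = 0.19). The differences were −0.05 for Fos (adjusted p = 0.68), −0.13 for Egr1 (adjusted p = 0.37), −0.08 for Jun (adjusted p = 0.48) and −0.16 for Nr4a1 (adjusted p = 0.23).

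Of 40 postsynaptic and plasticity proteins 13 were lowered (32.5%, against 2.23% of all genes), 1 was raised and 26 were not called (median −0.15). Without preparation 6 there were 16 lowered and 1 raised, and in the unpaired fit 4 lowered and 0 raised. Homer1, a scaffold that links metabotropic glutamate receptors to calcium stores, had 747, 569, 635, 674 and 649 CPM with 2 h Bic and 451, 438, 421, 457 and 456 CPM with TBOA. All TBOA libraries lay below all 2 h Bic libraries (−0.54, SE 0.05, adjusted p = 0.00020). Frmd6, a membrane-cytoskeleton protein, fell by 0.70 on the log2 scale (SE 0.07, adjusted p = 0.00025), from 55.6 ± 7.00 to 33.98 ± 1.67 CPM (SD, n = 5). Ptchd1, a membrane protein linked to the postsynaptic density, differed by −0.45 (SE 0.06, adjusted p = 0.0023) and Cpeb3, which controls translation of synaptic mRNAs, by −0.39 (SE 0.05, adjusted p = 0.0017). Cpeb3 lost its call in the unpaired fit (−0.39). Pcdh8, Ptgs2, Plk2, Rnd3, Shank3, Rgs4, Camk2a and Camk1g were also lowered, by 0.21 to 0.49 on the log2 scale. Most of these lost their call in the unpaired fit. Nlgn3, a synaptic adhesion protein, was the raised gene (0.28, adjusted p = 0.017). Arc, the immediate early gene of dendrites, gave −0.20 (adjusted p = 0.16).

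CREB feedback and CREB-linked genes contributed 6 lowered (24%, against 2.23% of all genes) and 0 raised of 25 tested (0 raised by DESeq2 with the block, 2 at an unadjusted p under 0.05). Their median was −0.11, and without preparation 6 there were 8 lowered and 1 raised. Pim1, a serine/threonine kinase, went from 31.1, 22.2, 27.6, 30.5 and 34.5 CPM to 12.4, 12.7, 16.5, 15.3 and 19.5 CPM, again without overlap (−0.94, SE 0.08, adjusted p = 0.00010). Sik2, a kinase that holds CREB coactivators in the cytoplasm, differed by −0.45 (SE 0.05, adjusted p = 0.00091). The neighbouring microRNA genes Mir132 and Mir212 on chromosome 11, which are transcribed together from a CREB-regulated promoter, fell by similar amounts. Mir132 (75173682 to 75173747, plus strand) had 9.63, 5.598, 7.93, 6.38 and 8.87 CPM with 2 h Bic and 3.30, 3.39, 3.98, 3.12 and 3.98 CPM with TBOA, a difference of −1.12 (SE 0.12, adjusted p = 0.00038). Mir212 (75173388 to 75173478, plus strand) had 10.6, 6.61, 8.19, 8.09 and 10.3 CPM and then 4.20, 4.28, 4.68, 3.58 and 5.13 CPM, a difference of −1.01 (SE 0.11, adjusted p = 0.00042). In poly-A libraries reads on these hairpins come from the long primary transcript, so the mature microRNAs were not measured.

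The mature 3p products of those 2 loci and of Mir22hg, as given by RefSeq (GRCm38.p6), are shown because their seeds, bases 2 to 8 in capitals, tell which of them could share targets.
miR-132-3p: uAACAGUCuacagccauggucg
miR-212-3p: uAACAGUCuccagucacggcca
miR-22-3p: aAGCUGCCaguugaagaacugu
The 3p products of Mir132 and Mir212 have the same seed, AACAGUC, which their 5p products, not printed here, do not carry. miR-22-3p is encoded in Mir22hg, whose host transcript fell by 0.26 on the log2 scale (SE 0.06, adjusted p = 0.041). Mir124a-1hg, the host transcript of a neuronal microRNA (chromosome 14, 64587331 to 64593961), fell more, from 80.5, 66.3, 56.1, 70.1 and 93.6 CPM to 31.95, 41.8, 38.7, 36.2 and 56.6 CPM (−0.84, SE 0.10, adjusted p = 0.00057). Its groups overlapped only through preparations 6 and 8, with each preparation lower under TBOA.

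Of 32 potassium channel genes tested, 4 were lowered (12.5%, against 2.23% of all genes) and 0 raised (0 raised by DESeq2 and 0 at an unadjusted p under 0.05). Their median was −0.09, and 5 were lowered without preparation 6. Besides voltage-gated channels this list held inward rectifiers such as Kcnj4, so its counts are not those of voltage-gated channels alone. Kcna4, which carries an A-type current, had 37.3, 32.9, 43.1, 39.2 and 43.96 CPM with 2 h Bic and 24.1, 23.3, 23.6, 26.1 and 30.0 CPM with TBOA (−0.61, SE 0.05, adjusted p = 0.00012). Kcna1, an axonal channel, differed by −0.47 (SE 0.06, adjusted p = 0.0022), and both genes had groups that did not overlap. Kcnf1 (−0.29, SE 0.05, adjusted p = 0.0065) and the inward rectifier Kcnj4 (−0.28, SE 0.05, adjusted p = 0.0097) lost their calls without preparation 1 (−0.26 and −0.29) and in the unpaired fit (−0.29 for each).

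Glucose and lactate carriers were the lowered genes among 23 of glycolysis and glucose transport, where 3 were lowered and 0 raised (0 also by DESeq2 and at an unadjusted p under 0.05), with a median of −0.08 and 4 lowered without preparation 6. Slc2a1, the glucose transporter GLUT1, fell from 70.3 ± 8.73 to 51.6 ± 2.32 CPM (−0.43, SE 0.06, adjusted p = 0.0029), Slc2a3, the neuronal GLUT3, from 595 ± 29.2 to 470.2 ± 16.8 CPM (−0.33, SE 0.04, adjusted p = 0.0016) and Slc16a1, the carrier MCT1, from 234 ± 21.5 to 194 ± 11.9 CPM (−0.26, SE 0.05, adjusted p = 0.0098; SD, n = 5 for each). No TBOA library of these 3 genes reached a 2 h Bic library. The Slc16a1 call was lost without preparation 1 (−0.22), in the unpaired fit (−0.26) and with all 45 libraries in 1 fit (−0.26). Enzymes of the pathway gave values near 0, such as −0.06 for Gapdh (adjusted p = 0.48) and −0.09 for Pkm (adjusted p = 0.34). Among 17 MAP kinase feedback inhibitors, 3 fell (17.65%, against 2.23% of all genes), namely the phosphatases Dusp4 (−0.35, SE 0.05, adjusted p = 0.0037) and Dusp14 (−0.47, SE 0.08, adjusted p = 0.0099) and Spry2 (−0.27, SE 0.05, adjusted p = 0.013). None was raised (0 by DESeq2 and 0 at an unadjusted p under 0.05), the median was −0.13, and 4 fell and 1 rose without preparation 6. All 3 calls were lost in the unpaired fit, with −0.35, −0.48 and −0.27, and those of Dusp14 (−0.37) and Spry2 (−0.21) also without preparation 1.

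**Figure D3:**
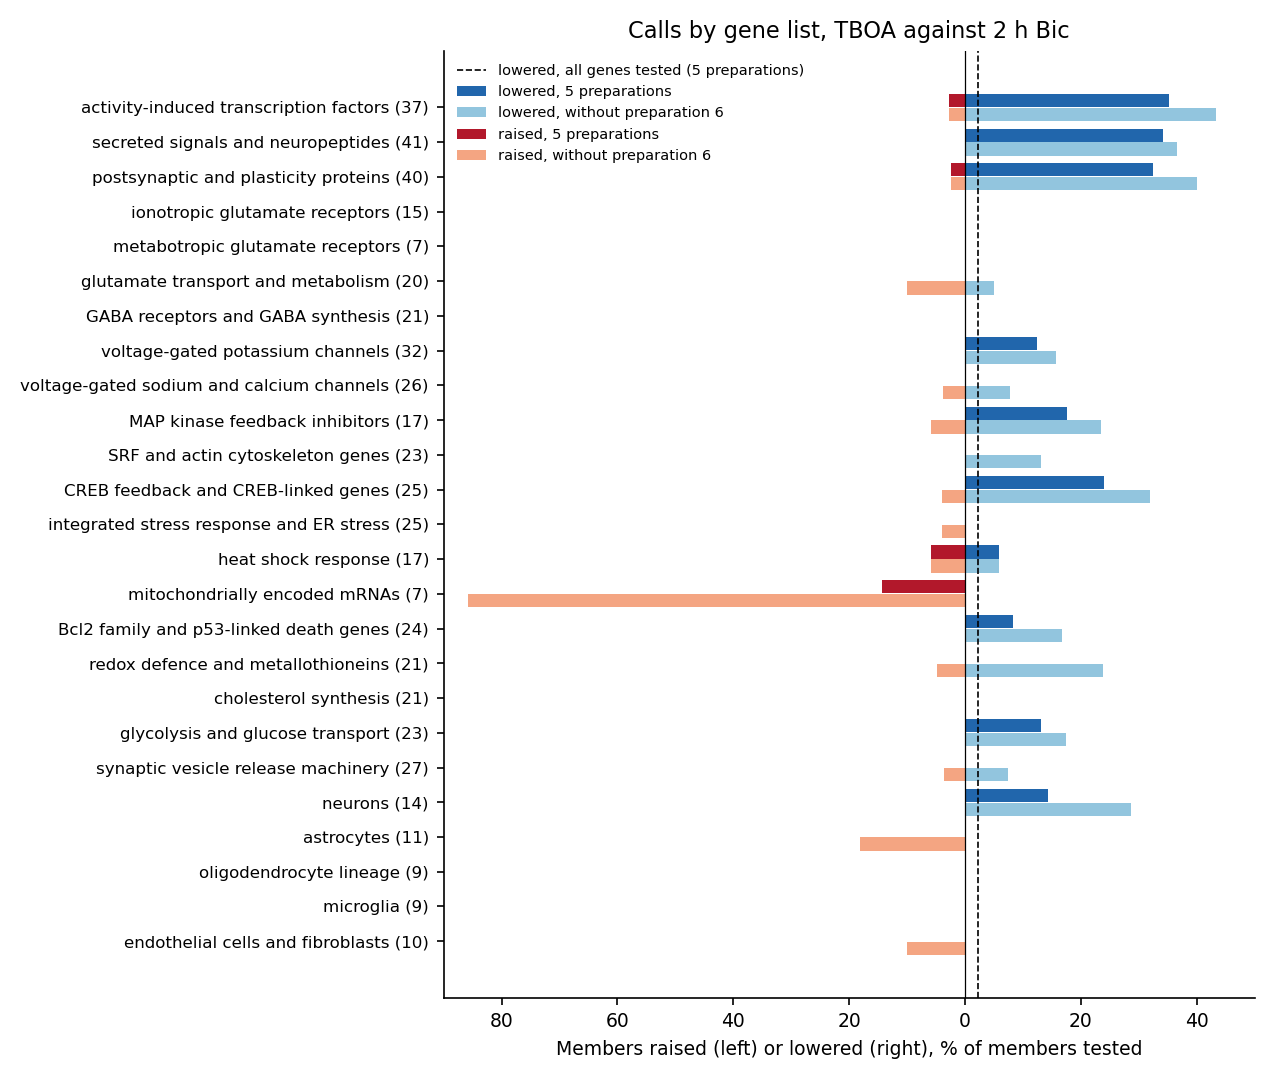
Share of the tested members of each gene list (number in parentheses) that were lowered (bars to the right) or raised (bars to the left) by TBOA, in percent, with all 5 preparations (dark) and without preparation 6 (light), and a dashed line at the 2.23% of all genes that were lowered. Transcription factors, secreted signals and postsynaptic proteins have 32.5% to 35.1% of members lowered, while glutamate and GABA receptors have none. Mitochondrially encoded mRNAs go from 1 raised of 7 tested with 5 preparations to 6 without preparation 6. The lists were drawn up with earlier results of these data known, so the shares are no test of a pathway. They hold genes, such as Inhba, Csrnp1 and Homer1, that the authors reported as reduced by TBOA.

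The largest falls named by rule also held genes outside these lists. Hes5, a repressor that acts downstream of Notch, had 1.95, 4.30, 2.62, 4.32 and 3.61 CPM with 2 h Bic and 0.40, 1.44, 1.21, 1.91 and 0.94 CPM with TBOA (−1.60, SE 0.17, adjusted p = 0.00042). Insm1, a zinc finger factor of newborn neurons and endocrine cells, went from 5.25 ± 1.38 to 2.79 ± 0.62 CPM (−0.85, SE 0.11, adjusted p = 0.0018), and Boc, a co-receptor of Hedgehog signals, from 27.6 to 16.1 CPM on average (−0.77, SE 0.11, adjusted p = 0.0032). The receptor Gpr3, which raises cAMP without a ligand, differed by −0.82 (SE 0.07, adjusted p = 5.7e-05), with 20.4 to 27.6 CPM under 2 h Bic and 11.3 to 15.3 CPM under TBOA. Zfp516 differed by −0.76 (SE 0.06, adjusted p = 4.2e-05), Zcchc3 by −0.75 (SE 0.09, adjusted p = 0.00060), Pard6b, a cell polarity protein, by −0.75 (SE 0.11, adjusted p = 0.0040) and Ankrd33b by −0.71 (SE 0.05, adjusted p = 2.3e-05). The calls of Lncppara (−1.0, adjusted p = 0.0075) and Phf21b (−0.76, adjusted p = 0.0075) were lost without preparation 1, with −0.88 and −0.66, and that of Phf21b also in the unpaired fit (−0.80). Those of Rnf43 (−0.72, adjusted p = 0.020), a ubiquitin ligase that removes Wnt receptors, and Gm49601 (−0.74, adjusted p = 0.035), both under 2 CPM, were lost without preparation 1 (−0.75 and −0.77), 3 (−0.74 and −0.82) or 7 (−0.71 and −0.81), and in the unpaired fit (−0.77 and −0.80), and that of Gm49601 also without preparation 8 (−0.57). Both were also lost in DESeq2 with the block (−0.74 and −0.73) and after thinning to the smallest library (−0.72 and −0.38).

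The 69 raised genes had a median of 0.29. Cd14, a co-receptor for bacterial lipopolysaccharide, had groups that did not overlap, with 0.50, 0.45, 0.69, 0.94 and 0.66 CPM with 2 h Bic and 1.49, 1.28, 1.13, 1.72 and 1.67 CPM with TBOA (1.19, SE 0.19, adjusted p = 0.0043). It was the only one of the 15 raised genes named by rule that kept its call under every alternative tried. Klf4, a zinc finger factor and the raised member of the transcription factor list, had 68.6, 95.6, 86.9, 64.5 and 33.6 CPM with 2 h Bic and 96.8, 114, 93.2, 79.8 and 52.9 CPM with TBOA (0.37, SE 0.06, adjusted p = 0.0075). Preparation 8 had the lowest Klf4 in both groups, which overlapped. The call was lost without preparation 1 (0.35), in the unpaired fit (0.33) and with all 45 libraries in 1 fit (0.37). Kcne4, an inhibitory subunit of potassium channels, rose by 0.54 (SE 0.11, adjusted p = 0.018), a call lost without preparation 1 (0.58), 3 (0.51) or 8 (0.49) and in the unpaired fit (0.57).

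Other raised genes included Eya1 (0.51, SE 0.09, adjusted p = 0.0077), a transcriptional coactivator and phosphatase, Rfx4 (0.38, SE 0.07, adjusted p = 0.0094), a factor of neural progenitors and astrocytes, and Col11a1 (0.37, SE 0.07, adjusted p = 0.013), a collagen chain. Their calls were lost without preparation 1, with 0.48, 0.38 and 0.36, and in the unpaired fit, with 0.51, 0.37 and 0.36. Of 11 astrocyte markers tested 0 were called in edgeR (4 higher at an unadjusted p under 0.05, 1 by DESeq2), 10 were above 0 and the median was 0.23. Without preparation 6 the median was 0.05 and 2 were raised. The part of astrocytes in the raised genes was not tested.

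Of 13 mitochondrially encoded mRNAs only 7 were tested. All 7 lay above 0, with a median of 0.22 and 1 called, mt-Nd2 (0.23, SE 0.05, adjusted p = 0.044). Without preparation 6 there were 6 of 7 called, with a median of 0.24. The ribosomal RNA mt-Rnr2 had 976, 1117, 1046, 1133 and 1170.0 CPM with 2 h Bic and 1551, 1583, 1411, 1245 and 1170.0 CPM with TBOA (0.36, SE 0.08, adjusted p = 0.027), so that preparations 1, 3 and 6 rose most and preparation 8 hardly differed. Its call was lost without preparation 1 (0.29) or 3 (0.32), in the unpaired fit (0.37), in DESeq2 with the block (0.35) and with a robust prior (0.36). That of mt-Nd2 was lost without preparation 1 (0.18), 3 (0.19), 7 (0.26) or 8 (0.26) and in the unpaired fit (0.23). With all 45 libraries in the fit neither kept its call (0.37 for mt-Rnr2 and 0.24 for mt-Nd2).

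The transporters that TBOA blocks and the glutamate receptors were not among the calls, and at the 2.23% of all genes that were lowered, lists as short as theirs would hold few calls, so that a count of 0 sets them apart from no other genes. Slc1a2 had 605, 473, 533, 610.0 and 474 CPM with 2 h Bic and 579, 507, 516, 535 and 563 CPM with TBOA, with overlapping groups and a difference of 0.02 (SE 0.06, adjusted p = 0.88). Slc1a3 went from 182, 233, 155, 263 and 191 CPM to 232, 257, 306, 264 and 216 CPM (0.34, SE 0.11, adjusted p = 0.12). Preparation 6 rose far more than the others, and without it the difference was 0.17 and was called (adjusted p = 0.017). Over all alternatives its adjusted p ran from 4.8e-09, with every gene of at least 1 read in the fit, to 0.36 in the unpaired fit, and it also passed with all 45 libraries in the fit (0.36, adjusted p = 0.0496). Slc1a1 gave −0.09 (SE 0.04, adjusted p = 0.27) and was lower in all 5 preparations, and Slc1a6 gave −0.04 (SE 0.08, adjusted p = 0.83). Of 20 genes of glutamate transport and metabolism 0 were called (3 lower and 4 higher at an unadjusted p under 0.05, 1 lowered by DESeq2), against 1 lowered and 2 raised without preparation 6. Of 15 ionotropic glutamate receptors 0 were called (3 lower at an unadjusted p under 0.05, 1 lowered by DESeq2), with differences from −0.20 for Grin1 to 0.17 for Grin2c. Of 7 metabotropic receptors 0 were called (1 lower at an unadjusted p under 0.05, 0 by DESeq2), and the same held for 21 genes of GABA receptors and GABA synthesis (3 lower at an unadjusted p under 0.05, 0 by DESeq2).

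The counts of the stress and death lists are likewise to be read against the 2.23% and 0.442% of all genes. In the integrated stress and endoplasmic reticulum stress list 0 of 25 genes were called (3 lower and 1 higher at an unadjusted p under 0.05, 0 by DESeq2), with −0.05 for Atf4 and 0.06 for Ddit3, and 1 was raised without preparation 6. Heat shock genes had 1 lowered and 1 raised of 17 with and without preparation 6, the chaperone Dnajb5 (−0.29, SE 0.04, adjusted p = 0.0026) and the co-chaperone Bag3 (0.44, SE 0.10, adjusted p = 0.045), whose call was lost without preparation 1 (0.42), 7 (0.45) or 8 (0.44) and in the unpaired fit (0.43). Of 24 Bcl2 family and p53-linked genes the DNA damage and growth arrest genes Gadd45a (−0.40, SE 0.08, adjusted p = 0.027) and Gadd45b (−0.30, SE 0.06, adjusted p = 0.021) were lowered, and 4 were lowered without preparation 6. Both calls were lost without preparation 1 (−0.39 and −0.22) and in the unpaired fit (−0.40 and −0.31), and that of Gadd45a also without preparation 3 (−0.41) or 8 (−0.32). The Gadd45b call was also lost with all 45 libraries in 1 fit (−0.31). Bbc3 and Pmaip1, which promote apoptosis, gave 0.21 (adjusted p = 0.13) and 0.22 (adjusted p = 0.099). Redox genes (21 tested), cholesterol synthesis (21), actin and SRF targets (23), sodium and calcium channels (26) and synaptic vesicle release (27) had 0 calls. At an unadjusted p under 0.05, 6, 3, 4, 8 and 9 of their genes passed, against 2909 of all 15628, and DESeq2 with the block lowered 1, 0, 0, 0 and 3 and raised 0 in each. Without preparation 6 they had 6, 0, 3, 3 and 3 calls.

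How the lowered genes had behaved at the time TBOA was added was read from 1 h Bic against the control, which shares no library with the TBOA comparison. Of 15184 genes tested there, 443 (2.92%) were raised and 175 (1.15%) lowered. TBOA lowered 110 of the 443 raised genes (24.8%) and raised 6 (1.35%), with a median difference of −0.14 and 339 genes below 0. Without preparation 6 it lowered 162 and raised 23 of them, with a median of −0.12. Of the 174 tested genes that 1 h Bic had lowered, TBOA lowered 13 (7.47%) and raised 4 (2.30%), with a median near 0 (−0.00097). Of the 14521 genes not called after 1 h Bic, TBOA lowered 222 (1.53%) and raised 57 (0.39%). The genes raised by 1 h Bic made up 31.6% of those lowered by TBOA, and 63.8% of the lowered genes had not been called after 1 h Bic. By 2 h, Bic had raised 281 of the 348 lowered genes above the control, each in all 5 preparations. The same held for 10 of the 69 raised genes and for 2034 of all 15628. That comparison shares the 2 h Bic libraries with the TBOA comparison. The 6 genes raised by both were Klf4, Kcne4, Pnrc1, Thbd, Gm45263 and Gm24119.

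**Figure D4:**
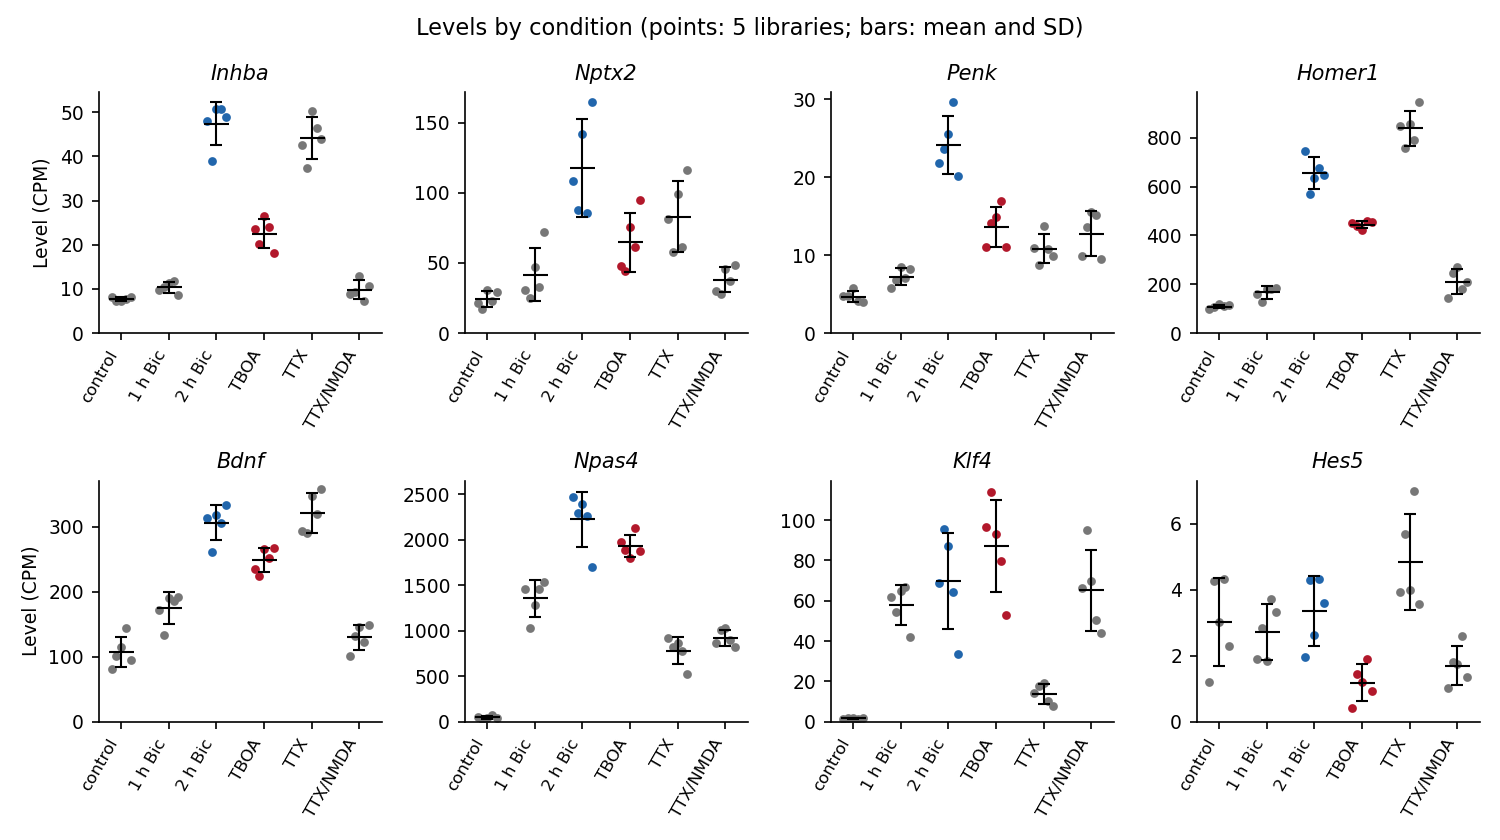
Levels in CPM (vertical axes, from 0) of 8 genes in the control, 1 h Bic, 2 h Bic, TBOA, TTX and TTX/NMDA, with 1 point for each of 5 libraries and a black bar for the mean and SD. Inhba, Nptx2, Homer1 and Bdnf have their TBOA level between 2 h Bic and TTX/NMDA, Npas4 and Klf4 stay far above their TTX level, and Hes5 is lowest with TBOA.

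Placed among all conditions, the level of Inhba with TBOA was 22.5 ± 3.31 CPM, between 10.4 ± 1.25 CPM at 1 h and 47.5 ± 4.88 CPM at 2 h of Bic, where untreated cells had 7.73 ± 0.45 CPM, against 44.1 ± 4.76 with TTX and 9.82 ± 2.18 with TTX/NMDA (SD, n = 5). Homer1 had 167 ± 24.96 CPM after 1 h Bic, 655 ± 64.4 after 2 h Bic and 445 ± 15.3 with TBOA, against 840 ± 71.5 with TTX and 210.3 ± 51.7 with TTX/NMDA. For these 2 genes the TTX level was close to or above that of 2 h Bic, and TBOA gave less than TTX in every preparation. Npas4 and Klf4 showed another order. Npas4 had 1932 ± 125 CPM with TBOA, 782 ± 151 with TTX and 925 ± 88.3 with TTX/NMDA, and Klf4 had 87.3 ± 22.8, 13.8 ± 4.91 and 65.2 ± 20.03 CPM in these conditions. Hes5, which Bic had left near its control level of 3.03 ± 1.33 CPM, reached 1.18 ± 0.56 CPM with TBOA, 4.84 ± 1.46 with TTX and 1.70 ± 0.59 with TTX/NMDA.

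TTX/NMDA against TTX also shares no library with the TBOA comparison, although it shares the preparations. It lowered 4674 of 16399 genes (28.5%) and raised 5510 (33.6%). Of the 348 genes lowered by TBOA, 315 (90.5%) were also lowered by NMDA, 9 were raised and 24 were not called. Of the 69 raised genes, 52 (75.4%) were raised by NMDA, 4 were lowered and 13 were not called. Seen from the other side, TBOA lowered 6.79% of the genes that NMDA lowered and 0.173% of those that NMDA raised, and without preparation 6 it lowered 499 of the former and 44 of the latter. The NMDA difference was the larger for 285 of the 315 genes lowered by both, with medians of −0.32 for TBOA and −0.74 for NMDA. Across 13564 genes of at least 1 CPM the differences had a Pearson r of 0.53 and a Spearman rho of 0.47, a description over genes that are not independent of each other.

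**Figure D5:**
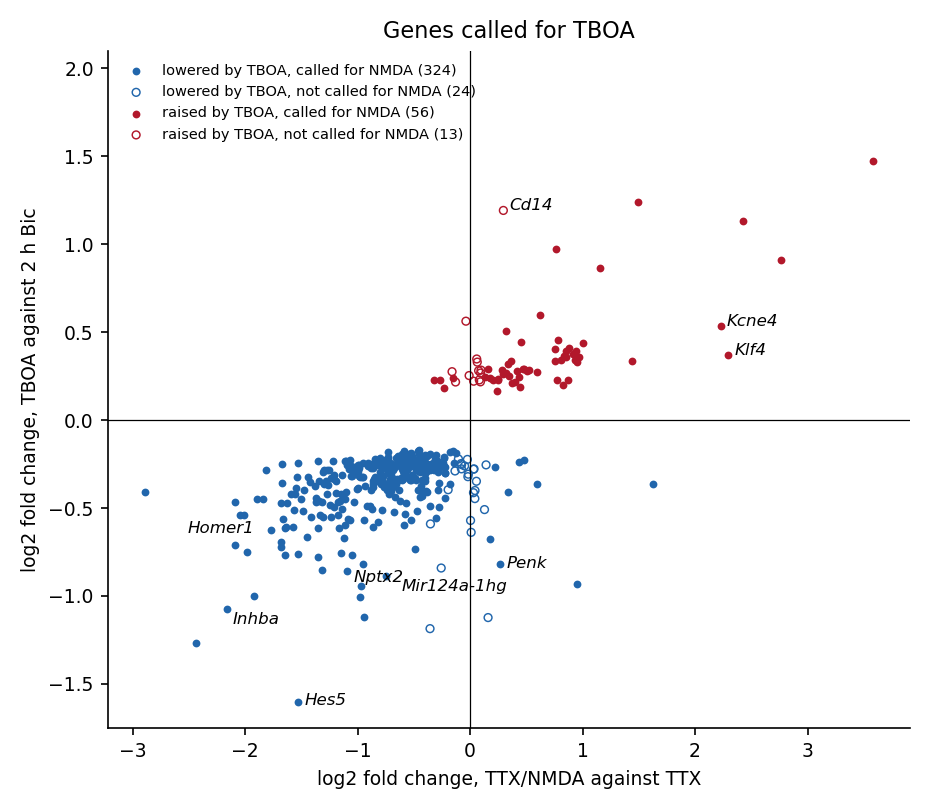
Log2 fold change of TBOA against 2 h Bic (vertical axis) and of TTX/NMDA against TTX (horizontal axis) for each of the genes called for TBOA, lowered in blue and raised in red, with open circles where NMDA gave no call. Most points lie at the lower left and upper right (315 and 52 genes called in both), and Penk lies at the lower right.

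Genes that TBOA and NMDA moved apart were few. Penk fell by 0.82 with TBOA, while NMDA gave 0.26 (adjusted p = 0.028), with 10.9 ± 1.88 CPM with TTX and 12.8 ± 2.86 CPM with TTX/NMDA. The Penk level with TBOA, 13.7 ± 2.54 CPM, was thus close to both. Pou3f2, a neuronal POU factor, gave −0.41 with TBOA (SE 0.09, adjusted p = 0.036) and 0.34 with NMDA (adjusted p = 0.0012). Gm9884, Gm27032, Mex3b, F8a, Otud1 and Csf2ra were also lowered by TBOA and raised by NMDA, and Pank3, Fgd4, Ralgps2 and Zfp266 were the 4 of opposite order. These genes were listed after their values were seen. Cd14 was not called for NMDA (0.30, adjusted p = 0.16), nor was Mir124a-1hg (−0.26, adjusted p = 0.068), and the difference between the TBOA and NMDA responses was not tested for any gene.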

How the data were processed

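RNA was sequenced from 45 libraries of 5 culture preparations. Per the submitters' processing notes and the methods, the authors demultiplexed with bcl2fastq (2.20.0.422), aligned strand-specific single-end poly-A reads with STAR (2.5.4b) to GRCm38, counted reads per gene by strand with featureCounts (1.6.5) and deposited raw counts without normalization (54532 genes). Multi-mapping reads and reads over several genes were left out by the authors, so paralogs and overlapping genes are uncertain. Symbols came from GENCODE M21, which held 54495 of the IDs; a symbol shared by several IDs was given to the protein-coding ID of most reads.

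TBOA was compared with 2 h Bic in edgeR (4.0.16; R 4.3.3): TMM, filterByExpr (minimum count 10), quasi-likelihood test with the preparation as a replicate block, which the labels name. Same-numbered libraries of the 2 groups deviated together with r = 0.45, 0.43, −0.21, 0.44 and 0.68 for preparations 1, 3, 6, 7 and 8. Calls were made at 0.05 after Benjamini-Hochberg adjustment. The other contrasts were fitted likewise on their 10 libraries. SE is the log2 fold change over the root of F. Levels are TMM-scaled CPM over the 45 libraries. The alternatives were the unpaired fit, all genes with at least 1 read, DESeq2 (1.42.0) and its size factors, a robust prior, 1 fit of all 45 libraries, libraries thinned to 11455443 counts, and leaving out each preparation. The fits were tested on simulated data. Named genes were the 20 largest falls and 15 largest rises among called genes of at least 1 CPM with the same direction in 5 preparations, up to 4 called genes of smallest adjusted p per list, and Slc1a1, Slc1a2, Slc1a3, Slc1a6, Bdnf, Inhba, Homer1 and Npas4. The comparison, lists and rules were chosen with earlier results of these data known. Promoter sequences matched 74.1% of the lowered genes, under the 80% needed, so the planned comparison of promoter motifs is void and not given. Some items are not reported here.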

Additional observations from a re-analysis of the deposited data

Results flagged for a closer look

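In 6 of 128 groups of 5 libraries of the 64 named genes, the highest or lowest library lay apart from the other 4 by Dixon's test at the 95% level, which chance gives for about 5% of groups. Of these 6, 3 concern preparation 8 with TBOA. Per2 was 36.3 CPM there against 23.04 to 25.1 CPM in the others, Eya1 was 4.48 CPM against 6.49 to 7.09 CPM, and Rnf43 was 0.73 CPM against 1.13 to 1.27 CPM. With 2 h Bic, Npas4 was 1702 CPM in preparation 8 against 2258 to 2473 CPM, Inhba was 38.98 CPM in preparation 3 against 48.0 to 50.7 CPM, and Rfx4 was 17.1 CPM in preparation 7 against 10.5 to 11.96 CPM. Leaving out the preparation concerned kept the calls of Per2, Eya1, Rnf43, Inhba and Rfx4, and Npas4 was called neither with nor without preparation 8.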

How the results depend on the processing

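The number of genes lowered (348) and raised (69) by TBOA depended on the preparations, the block and the low-count filter. With no replicate block the numbers were 97 and 7, and with no block and no low-count filter 174 and 17. With the block and no filter they were 705 and 355, in a fit whose prior degrees of freedom were infinite, so that genes shared 1 trend of the quasi-dispersion. Fitting all 45 libraries raised 156 genes, and DESeq2 without the block raised 38. Leaving out 1 preparation gave 112 to 619 lowered and 8 to 305 raised genes, the highest without preparation 6 and the lowest without preparation 1. For 1 h Bic, 443 raised and 175 lowered genes became 254 and 58 with no replicate block and 806 and 409 with no filter, and the NMDA numbers stayed within 1.5 times. Size factors of DESeq2, its paired fit, the robust prior and thinning kept the lowered number between 300 and 434. Of 59 named genes that were called, 27 kept their call under all 14 alternatives and 0 changed direction. Of the 5 not called, Slc1a2 changed sign on leaving out preparations, from −0.041 to 0.068, with −0.004 without preparation 3, as did Slc1a6, from −0.097 to 0.031. The causes of these differences were not tested. Thinning all libraries to 11455443 counts ended 7 of the named calls, and whether this depended on the level of the genes was not tested.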

Other observations

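Further lowered genes outside the lists were named after their values were seen, so that they stand for no pathway. They include Smad7, an inhibitor of TGF-β signals, Axin2, an inhibitor of Wnt signals, and the Wnt receptor Fzd4, which fell by 0.56, 0.40 and 0.40 on the log2 scale. The somatostatin receptors Sstr1 and Sstr2, the ghrelin receptor Ghsr and the neuropeptide receptor Npbwr1 fell by 0.47, 0.40, 0.61 and 0.50 on the log2 scale, while Sst, the ligand gene of the first pair, was not called (−0.16, adjusted p = 0.28).

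Lowered genes had a median exon length of 4.94 kb against 4.31 kb for all genes tested, and a median level of 50.6 CPM against 18.4 CPM. Raised genes had a median genomic span of 42.8 kb against 21.99 kb for lowered genes and 23.3 kb for all genes. Of the lowered genes, 93.7% were protein-coding, and of the raised genes 87.0%.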
